A study of Mus musculus with 6 samples.

Results

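Cell cycle and DNA replication genes were examined in inguinal lymph nodes of mice given naringin, the bitter flavanone glycoside of citrus fruit. The 44 genes were taken by symbol from the 50559 rows of the deposited table: 22 act mainly in S phase, when DNA is copied, and 22 in G2 and mitosis (G2/M). The rule used gene symbols and no measured value, but the list was drawn up with earlier results of these data known. The 3 Naringin samples received 200 mg/kg of naringin per day mixed into the food, and the 3 Control samples are labelled only as Control. The sources used here do not give strain, age, sex, feeding time or the diet of the controls. Nothing in the labels ties each sample to its own mouse, so p-values measure only the spread between these samples.

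Most lymphocytes of a resting node are in G0, outside the cell cycle, and dividing cells are found mainly in germinal centres, among plasmablasts and among activated T cells. On entry into the cycle, E2F transcription factors switch on the genes that license origins, unwind DNA and supply nucleotides. Later, the MuvB complex with B-Myb and FoxM1 switches on the genes that condense, align and separate chromosomes. RNA of these genes therefore reports on dividing cells, but in whole tissue more dividing cells cannot be told apart from more RNA in each of them.

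Promoters are shown because many members hold these regulatory elements and sequence played no part in the choice of the genes. RefSeq promoter windows of build GRCm38.p6, from 250 bases before to 50 after the transcription start, matched 37 of the 44 genes. Mcm4, Gins2, Ccne2, Ccna2, Aurkb, Kif20a and Tpx2 had no entry. A window was searched on both strands for an E2F core, written as TTGGCGC or TTCCCGC, for the cell cycle homology region (CHR) bound by MuvB, written as TTTGAA, and for the CCAAT box bound by NF-Y, written as CCAAT. Matches that overlapped were counted under both motifs. The E2F core occurred in 10 of 19 S phase genes and in 3 of 18 G2/M genes, against 7.79% of all 27025 genes in the promoter table and 13.4% of the 11298 that were tested for expression. The G2/M share of 16.7% was thus near that of tested genes. The CHR showed the reverse order, with 13 of 18 G2/M genes, 3 of 19 S phase genes, 20.2% of all genes and 15.1% of tested genes. The CCAAT box was found in 16 of 18 G2/M genes, 12 of 19 S phase genes, 41.1% of all genes and 42.4% of tested genes. Tyms, Dut, Ccne1, E2f1, Birc5 and Nusap1 held none of these letters in their windows. A match is a description of the letters and not a bound site, and the coordinates below are those of GRCm38.p6, not of the build the reads were aligned to.

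Of the S phase genes, Mcm5 and Mcm6, subunits of the replicative helicase, and Pola1, the catalytic subunit of DNA polymerase alpha, are shown as examples chosen for their E2F cores. The 200 bases before the start are given 5′ to 3′ on the coding strand, with each E2F core in capitals. They lie at chr8:75109309-75109508 (plus strand), chr1:128359706-128359905 (minus strand) and chrX:93632156-93632355 (minus strand).
Mcm5: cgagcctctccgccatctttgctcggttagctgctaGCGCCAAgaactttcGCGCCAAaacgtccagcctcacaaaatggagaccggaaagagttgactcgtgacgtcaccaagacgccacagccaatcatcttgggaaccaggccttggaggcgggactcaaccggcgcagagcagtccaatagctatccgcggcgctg
Mcm6: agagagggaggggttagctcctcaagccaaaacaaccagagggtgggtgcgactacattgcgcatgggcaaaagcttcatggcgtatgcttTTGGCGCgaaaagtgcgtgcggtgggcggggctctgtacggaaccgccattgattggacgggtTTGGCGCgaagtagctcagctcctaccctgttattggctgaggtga
Pola1: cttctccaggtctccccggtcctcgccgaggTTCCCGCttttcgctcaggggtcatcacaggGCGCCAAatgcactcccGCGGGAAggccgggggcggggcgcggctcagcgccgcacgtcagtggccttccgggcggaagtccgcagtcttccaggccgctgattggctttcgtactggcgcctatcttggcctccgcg

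Of the G2/M genes, Top2a, which untangles DNA, Cdk1, the mitotic kinase, and Mki67, which encodes the Ki-67 coat of mitotic chromosomes, are shown as examples chosen for their CHR and CCAAT matches. Here both the CHR and the CCAAT boxes are in capitals, on either strand, and the E2F cores that the Cdk1 and Mki67 windows also hold are not. The windows lie at chr11:99024190-99024389, chr10:69352913-69353112 and chr7:135716380-135716579, all on the minus strand.
Top2a: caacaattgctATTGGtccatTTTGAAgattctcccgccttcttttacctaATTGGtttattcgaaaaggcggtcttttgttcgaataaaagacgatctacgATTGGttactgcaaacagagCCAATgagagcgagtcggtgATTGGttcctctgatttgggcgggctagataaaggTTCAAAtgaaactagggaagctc
Cdk1: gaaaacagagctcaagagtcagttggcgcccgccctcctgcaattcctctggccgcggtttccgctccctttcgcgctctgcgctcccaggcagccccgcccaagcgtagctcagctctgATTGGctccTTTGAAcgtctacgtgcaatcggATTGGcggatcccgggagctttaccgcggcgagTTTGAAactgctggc
Mki67: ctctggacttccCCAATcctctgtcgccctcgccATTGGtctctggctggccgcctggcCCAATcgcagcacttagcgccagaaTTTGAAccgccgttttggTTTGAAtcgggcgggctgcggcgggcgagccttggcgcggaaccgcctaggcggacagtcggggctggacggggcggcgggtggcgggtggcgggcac

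Levels were measured as CPM, a gene's reads scaled to a common library total, in libraries of 13074180 to 14976422 reads. Differences are given as log2 folds, Naringin minus Control, on the log2(CPM + 1) scale, with limma's moderated standard error (SE). One library stood apart. In Control 3, genes of ribosomal proteins took 12.6% of the reads against 8.71% to 10.1% elsewhere. There, genes with transcripts under 1500 bases lay higher and those over 5000 bases lower, by medians of 0.21 and -0.36 from the mean of the gene. In the other libraries these medians lay between -0.08 and 0.02 and between 0.0006 and 0.19. Results are therefore also given without Control 3.

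All 44 genes were transcribed in every library, with 23 to 2252 reads per gene and library, and all passed the filter of a mean of at least 1 CPM. None passed the test of Naringin against Control. In limma 0 of the 44 had an adjusted p under 0.05 and 0 an unadjusted p under 0.05, where 0% and 1.43% of all 14873 tested genes did. The edgeR and DESeq2 tests on recovered reads also gave 0 members at either threshold. The smallest unadjusted p among the members was 0.112 by limma, for Aurkb, and every member had a limma adjusted p of 0.9996. The 95% intervals of the 44 log2 folds reached no lower than -0.77 and no higher than 0.85. Every interval thus left out a change of 1 log2 unit, or 2-fold on the log2(CPM + 1) scale, but smaller changes in either direction remained within them.

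Differences were small and more often above 0 than below it, though the count varied with the processing. Of the S phase genes, 16 of 22 were higher on average in the Naringin libraries (median log2 fold 0.03), and of the G2/M genes 16 of 22 did, with a median of 0.11. Over all tested genes 56.7% were higher and the median was 0.02. The log2 fold was smaller than 0.2 in either direction in 38 of the 44 genes. Pcna was the single member whose 3 Naringin values all lay above its 3 Control values, which happened in 3.36% of all genes. Under quantile normalization 24 of the 44 members were above 0 (S phase median -0.02), against 7259 of all 14873 tested genes. Under DESeq2 23 of the 44 were, against 7220 of all tested genes.

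**Figure D1:**
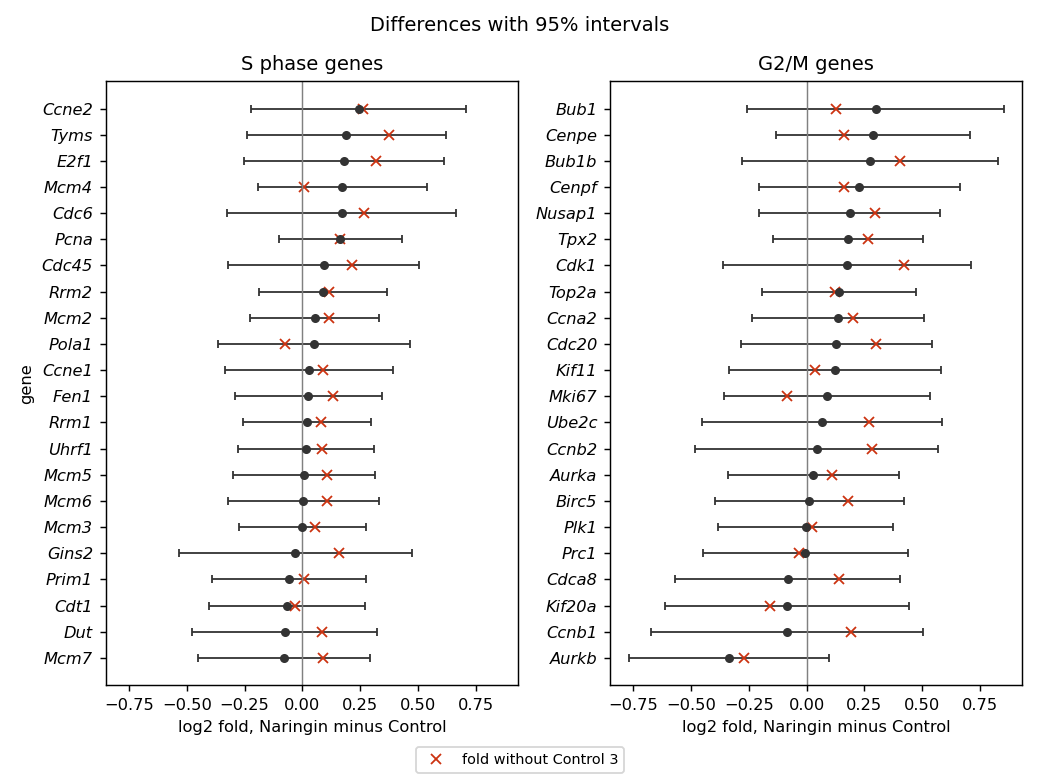
Log2 fold of each member, Naringin minus Control on the log2(CPM + 1) scale, with black points for the estimate from 6 libraries, bars for limma's 95% interval and red crosses for the estimate without Control 3. All 44 intervals include 0, and leaving out Control 3 moves most S phase genes to the right.

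The MCM proteins form the ring-shaped helicase that opens DNA at the fork, with each of Mcm2 to Mcm7 present in the ring. Mcm2 stood at 74.5, 67.5 and 81.1 CPM in Controls 1, 2 and 3 and at 79.1, 77.4 and 74.4 CPM in Naringin 1, 2 and 3. The Naringin values lay inside the Control range, and the log2 fold was 0.05 ± 0.12 (SE, n = 3 each; limma unadjusted p = 0.677). Mcm3, Mcm5 and Mcm6 had log2 folds nearer 0, at -0.00061, 0.0075 and 0.003. Mcm7 had the lowest fold of the S phase genes, -0.08 ± 0.16, with 92.5, 86.4 and 128 CPM in the controls and 93.1, 98.0 and 94.7 CPM with naringin. Control 3 stood above every other library (limma unadjusted p = 0.635), and without it the log2 fold was 0.09. Mcm4 showed the reverse pattern, with 73.2, 75.5 and 52.3 CPM in the controls and 78.2, 74.1 and 71.9 CPM with naringin. Its log2 fold of 0.17 ± 0.16 (limma unadjusted p = 0.311) was 0.0066 without Control 3. Per kilobase of transcript, the mean level over the 6 libraries ran from 19.8 CPM for Mcm4 to 33.3 CPM for Mcm7.

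Other factors load and start the helicase. Cdc6 and Cdt1 bring the MCM ring to origins, and Cdc45 and Gins2 join it to make it active. Cdc6 had 8.57, 6.14 and 9.09 CPM in the controls and 10.3, 9.88 and 7.004 CPM with naringin, a log2 fold of 0.17 ± 0.22. The groups overlapped, as they did for Cdt1, Cdc45 and Gins2, with log2 folds of -0.07, 0.09 and -0.03. Cdt1 ranged more within Naringin, from 36.0 CPM in Naringin 1 to 50.3 CPM in Naringin 3, than between the groups.

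The sliding clamp Pcna, which holds polymerases on DNA, stood at 128, 144 and 135 CPM in the controls and 148, 150 and 158 CPM with naringin. The groups did not overlap, although Naringin 1 exceeded Control 2 by little, and the log2 fold was 0.16 ± 0.12 with a 95% interval of -0.10 to 0.43 (limma unadjusted p = 0.197). Without Control 3 the fold was again 0.16. Fen1, which trims Okazaki fragments, and the polymerase alpha-primase genes Pola1 and Prim1 had log2 folds of 0.03, 0.05 and -0.06. Pola1 was lowest in Control 3, at 14.4 CPM, and in Naringin 3, at 15.0 CPM, against 19.1 to 20.7 CPM in the others.

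The genes of nucleotide supply did not separate the groups. Ribonucleotide reductase makes deoxynucleotides, and its subunits Rrm1 and Rrm2 had log2 folds of 0.02 and 0.09. Tyms, which makes thymidylate, had 11.8, 12.1 and 17.9 CPM in the controls and 15.9, 16.7 and 14.7 CPM with naringin. Controls 1 and 2 lay below all Naringin libraries and Control 3 above them. Its log2 fold was 0.19 ± 0.19 (limma unadjusted p = 0.340), and 0.37 without Control 3. Dut, which clears dUTP, showed 45.8 CPM in Control 3 and 29.7 to 38.3 CPM elsewhere, with a log2 fold of -0.08 ± 0.17.

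Of the regulators of S phase entry, Ccne2 and E2f1 had higher folds than Ccne1 and Uhrf1, and none passed the test. Ccne2, a cyclin E that activates Cdk2, was the scarcest member and had 1.99, 1.66 and 1.94 CPM in the controls and 2.88, 2.54 and 1.82 CPM with naringin. Its log2 fold of 0.24 ± 0.20 was the highest of the S phase genes, yet Naringin 3 lay within the Control range (limma unadjusted p = 0.264). The other cyclin E, Ccne1, had a log2 fold of 0.03. E2f1, the founding E2F activator, had 11.3, 9.83 and 14.3 CPM in the controls and 15.8, 12.5 and 12.1 CPM with naringin, a log2 fold of 0.18 ± 0.19 with overlapping groups. Uhrf1, which carries DNA methylation through replication, had a log2 fold of 0.02.

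Among the G2/M genes, Mki67, the standard marker of dividing cells, stood at 87.2, 86.5 and 60.3 CPM in the controls and 96.3, 85.6 and 66.3 CPM with naringin. The lowest values were those of Control 3 and Naringin 3, the groups overlapped, and the log2 fold was 0.09 ± 0.20 (limma unadjusted p = 0.666). Without Control 3 it was -0.09, in the other direction. Top2a had 84.6, 79.7 and 79.2 CPM in the controls and 105, 91.1 and 75.1 CPM with naringin, a log2 fold of 0.14 ± 0.15 (limma unadjusted p = 0.364). Naringin 1 was its highest library and Naringin 3 its lowest.

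Cyclins A and B activate Cdk1 to drive the cell into mitosis. Ccnb1 had 11.4, 10.3 and 20.05 CPM in the controls and 14.2, 13.4 and 10.2 CPM with naringin, a log2 fold of -0.09 ± 0.26 (limma unadjusted p = 0.748), which was 0.19 without Control 3. Ccnb2 was also highest in Control 3, at 19.6 CPM against 10.05 to 15.3 CPM elsewhere. Cdk1 had 12.8, 11.999 and 21.3 CPM in the controls and 19.4, 17.6 and 14.1 CPM with naringin, a log2 fold of 0.18 ± 0.23 that was 0.42 without Control 3. For all 3 genes, Control 3 lay above every other library. Ccna2 varied less, from 16.1 to 22.8 CPM, with a log2 fold of 0.14.

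Mitotic kinases gave the largest single difference. Aurkb, the kinase of the chromosomal passenger complex that corrects faulty spindle attachments, had 11.5, 12.4 and 13.8 CPM in the controls and 12.5, 8.55 and 8.62 CPM with naringin. Naringin 2 and 3 lay below all controls and Naringin 1 did not, and the log2 fold was -0.34 ± 0.19, with a 95% interval of -0.77 to 0.10 (limma unadjusted p = 0.112). Its partners in that complex, Birc5 (survivin) and Cdca8 (borealin), had log2 folds of 0.01 and -0.08. Aurka, which matures centrosomes, and Plk1, which acts at several mitotic steps, had log2 folds of 0.03 and -0.0040, and for both the Naringin values lay within 9.32 to 11.3 CPM.

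Among members of the spindle checkpoint and the kinetochore, Bub1, a checkpoint kinase, had 7.34, 7.37 and 4.88 CPM in the controls and 10.4, 8.55 and 6.02 CPM with naringin, the highest log2 fold of the members at 0.30 ± 0.24 (limma unadjusted p = 0.251). Naringin 3 again lay among the controls, and without Control 3 the fold was 0.13. Its relative Bub1b (BubR1) had 20.7, 19.7 and 26.9 CPM in the controls and 35.7, 29.8 and 18.6 CPM with naringin, a log2 fold of 0.27 ± 0.24. This fold was 0.53 without Naringin 3 and 0.08 without Naringin 1. Cenpe, the kinetochore motor, had 11.5, 14.2 and 9.62 CPM in the controls and 16.3, 14.1 and 13.03 CPM with naringin, a log2 fold of 0.29 ± 0.18 (limma unadjusted p = 0.155) that was 0.16 without Control 3. Cenpf, a kinetochore protein that rises in G2, had a log2 fold of 0.23 ± 0.19, and 0.16 without Control 3.

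Genes of spindle assembly and mitotic exit were closer to 0. Tpx2, which activates Aurora A on the spindle, had 19.4, 18.7 and 23.1 CPM in the controls and 24.9, 22.7 and 21.9 CPM with naringin, a log2 fold of 0.18 ± 0.14 (limma unadjusted p = 0.240) with Control 3 inside the Naringin range. The spindle motor Kif11 and the microtubule binder Nusap1 had log2 folds of 0.12 and 0.19. Prc1, which bundles the midzone, and Kif20a, a cytokinesis motor, had -0.0052 and -0.08. Cdc20 and Ube2c serve the anaphase-promoting complex, which ends mitosis by marking cyclin B for destruction, and had log2 folds of 0.13 and 0.07. Both were highest in Control 3, at 19.2 and 17.0 CPM.

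**Figure D2:**
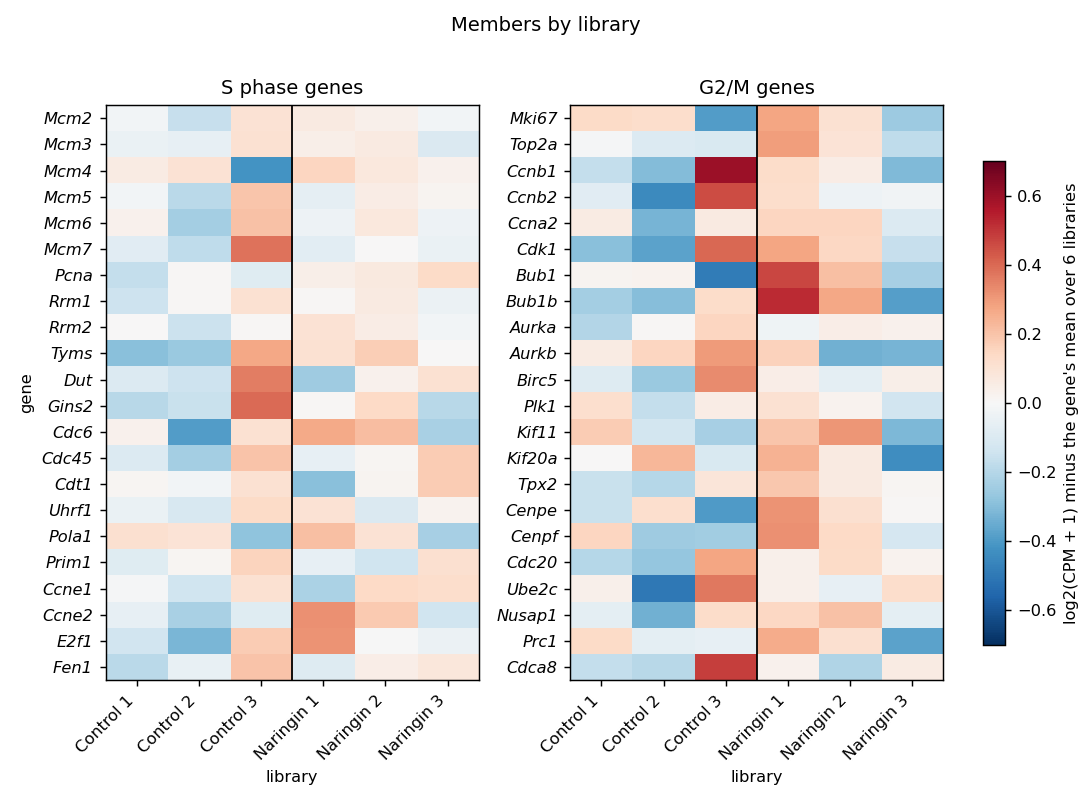
Each row is a gene and each column a library, with the colour giving log2(CPM + 1) minus the mean of that gene over the 6 libraries (red above, blue below). Control 3 is the reddest column for 22 of the 44 genes and holds the lowest value of 5, and among G2/M genes Naringin 1 is mostly red and Naringin 3 mostly blue.

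Summed over genes, S phase and G2/M differed in how they varied between libraries. The 22 S phase genes summed to 990, 968 and 1115 CPM in the controls and 1035, 1067 and 1045 CPM with naringin, or 1024 ± 79.7 and 1049 ± 16.7 CPM (SD, n = 3 each). The 3 Naringin sums lay inside the Control range. The 22 G2/M genes summed to 450, 416 and 466 CPM in the controls and 537, 487 and 407 CPM with naringin, or 444 ± 25.3 and 477 ± 65.2 CPM. Here Naringin 1 and 2 lay above all controls and Naringin 3 below them. Sums are led by the abundant genes, so the mean log2(CPM + 1) of each set was also taken. The S phase mean exceeded the G2/M mean by 0.88, 0.94 and 0.93 in Controls 1, 2 and 3 and by 0.74, 0.89 and 1.04 in Naringin 1, 2 and 3. The group means were 0.92 ± 0.03 and 0.89 ± 0.15, and their difference of -0.03 was smaller than the spread within Naringin. It was 0.05 without Naringin 1 and -0.10 without Naringin 3.

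The contrast between Naringin 1 and Naringin 3 was seen in G2/M genes more than in S phase genes. Of the G2/M genes, 19 of 22 were higher in Naringin 1, with a median log2 difference of 0.37, and of the S phase genes 12 of 22, with 0.06. Over all tested genes the share was 50.6% and the median 0.0039. This contrast is between single libraries of a group, was singled out after the values were seen, and has no test. Within Naringin the summed markers of 3 other cell types also ran downward from Naringin 1 to Naringin 3. Those of B cells (3706, 4559 and 4552 CPM in Naringin 1, 2 and 3) and of T cells (1533, 1428 and 1851 CPM) did not. The 7 macrophage markers (Cd68, Adgre1, Csf1r, Mertk, Cd163, Siglec1 and Marco, none at 0) summed to 1904, 1240 and 591 CPM in Naringin 1, 2 and 3 and to 769, 947 and 1493 CPM in the controls. Among the controls these markers were lowest in Control 1, and the G2/M sum was lowest in Control 2. Control 3 lay above Naringin 2 for these markers and below it for the G2/M sum. The 8 plasma cell markers summed to 439, 427 and 379 CPM in Naringin 1, 2 and 3 and to 335, 400 and 507 CPM in the controls. Of these, Irf4 and Mzb1 had their lowest Naringin value in Naringin 1. Adipocyte markers summed to 20.97, 20.8 and 5.53 CPM in Naringin 1, 2 and 3 and to 56.9, 21.7 and 13.5 CPM in the controls. Adipoq, Cfd, Plin1 and Cidec were each higher in Naringin 2 than in Naringin 1, and lowest in Naringin 3. Germinal centre B cell markers, 9 of 10 of which were tested, were even, with sums of 143 to 154 CPM over the 6 libraries. The part of these cell types in the G2/M values was not tested. Mef2b, the untested marker of that list, was at 0 in Control 2.

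**Figure D3:**
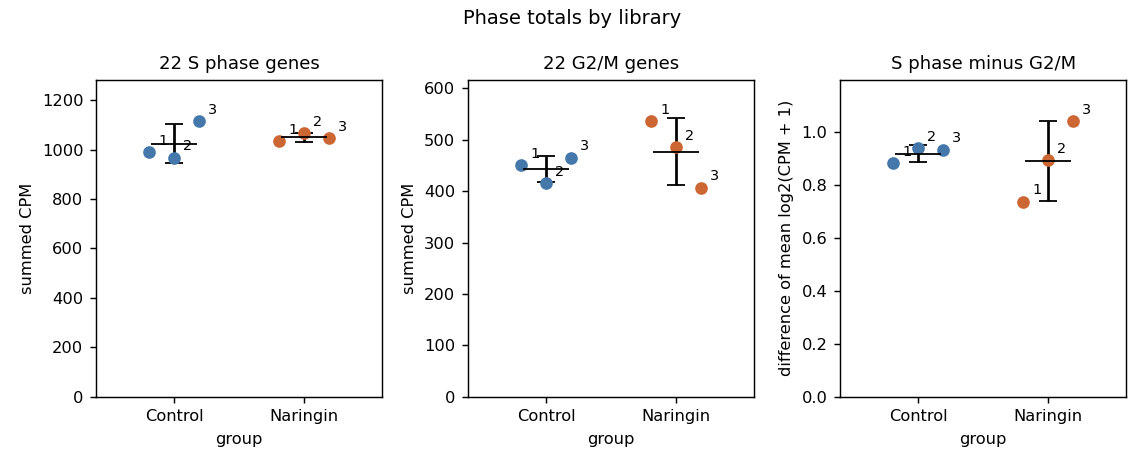
Summed CPM of the S phase and of the G2/M genes, and the S phase minus G2/M difference in mean log2(CPM + 1), by group. Points are libraries numbered as in the labels, black bars are the mean and SD of 3 libraries, and the G2/M sums run from 407 to 537 CPM within Naringin.

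Control 3 differed from Controls 1 and 2 in the members, and the difference varied with transcript length. It was the highest library for 22 of the 44 genes, against 24.0% of all tested genes, and Control 2 was the lowest for 20 of the 44, against 12.1%. Transcript lengths were taken from GENCODE M21. All 5 members over 5000 bases (Pola1, Top2a, Mki67, Cenpe and Cenpf) were lower in Control 3 than in the mean of Controls 1 and 2, with a median log2 difference of -0.38. Of all tested genes of that length, 16.5% were higher. Of the 10 members under 2000 bases 9 were higher, with a median of 0.49, against 72.6% of all tested genes of that length. Between these lengths 24 of 29 members were higher, against 43.0% of all tested genes of that length. Bub1 and Mcm4, with transcripts of 3421 and 3589 bases, were the lowest of the others in that class, with differences of -0.51 and -0.50. Across the 44 genes Pearson's r between log10 length and the Control 3 difference was -0.56, and across 13956 tested genes -0.42. Genes of the same libraries share depth and RNA, so these are descriptions. Markers of germinal centre B cells, plasma cells and macrophages also had higher medians in Control 3, by 0.29, 0.33 and 0.48 from each gene's mean over the libraries. Single markers went the other way. Against Controls 1 and 2, Control 3 was lower for the germinal centre markers Bcl6 (-0.69), Mybl1 (-0.67) and Gcsam (-0.08). It was also lower for the plasma cell markers Prdm1 (-0.53) and Irf4 (-0.52) and the macrophage marker Cd163 (-0.39). The part of transcript length or of these cells in the Control 3 values was not tested.

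**Figure D4:**
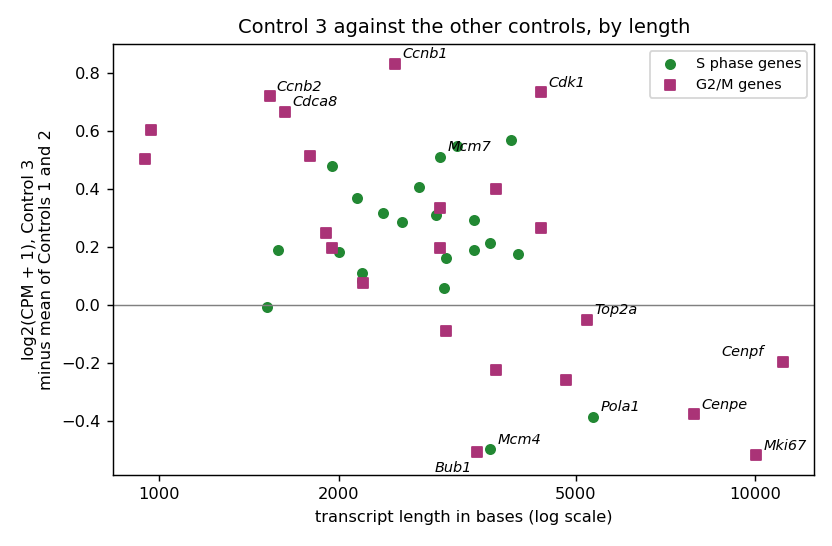
Each point is a member, placed by transcript length in bases (log scale) and by its log2(CPM + 1) in Control 3 minus the mean of Controls 1 and 2. The 5 genes over 5000 bases lie below 0 and 9 of the 10 under 2000 bases lie above it.

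The count of members above 0 depended on which library was left out. Without Control 2, the lowest library for many members, 24 of 44 had a higher mean with naringin, 10 S phase and 14 G2/M genes, against 59% of all tested genes, and the medians were -0.0096 and 0.03. Without Control 3, 38 of 44 had a higher mean with naringin, 20 of 22 S phase and 18 of 22 G2/M genes, against 50.3% of all tested genes, and the medians were 0.11 and 0.16. All 3 Naringin values lay above both remaining controls in 10 members, against 11.2% of all genes: Mcm7, Pcna, Tyms, Cdc45, E2f1, Ccnb2, Cdk1, Birc5, Tpx2 and Cdc20. At an unadjusted p under 0.05 by limma there were 2 members, Tyms and Cdk1, a share below the 9.35% of all tested genes, and 0 passed after adjustment. When the length trend of each library was removed, an alternative chosen after seeing the data, 27 of 44 members were higher with all 6 libraries, against 51.8% of genes, and 37 of 44 without Control 3, against 52.7%. Leaving out Naringin 3 instead gave 34 of 44 higher, against 57.1%, with medians of 0.05 for S phase and 0.20 for G2/M genes. In that case 10 members did not overlap, against 11.1% of all genes: Pcna, Rrm2, Cdc6, Ccne2, Top2a, Ccna2, Bub1, Bub1b, Kif11 and Nusap1. Pcna was the gene that both sets of 10 shared.

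In the other cell cycle lists, limma called 0 genes after adjustment. Over all tested genes 56.7% were higher and the median log2 fold was 0.02. Of 40 further licensing and replisome genes 22 were higher and 18 lower, with a median log2 fold of 0.01. Mcm10, which helps start the fork, had the smallest p, with 5.28, 5.49 and 8.02 CPM in the controls and 9.25, 9.55 and 7.84 CPM with naringin and a log2 fold of 0.46 ± 0.20 (limma unadjusted p = 0.0515). Orc2, of the origin recognition complex, followed at 0.22. Of 37 tested further mitosis genes 24 were higher and 13 lower, with a median of 0.10. Anln, the cytokinesis scaffold anillin, had 5.97, 3.69 and 5.41 CPM in the controls and 9.98, 8.55 and 5.81 CPM with naringin. Its log2 fold was 0.59 ± 0.25 (limma unadjusted p = 0.0425). It was the only gene of these lists with an unadjusted limma p under 0.05, where 1.43% of all tested genes lay. Knl1, a kinetochore scaffold, had a log2 fold of 0.50 ± 0.23 (limma unadjusted p = 0.0590), and 0.27 without Control 3. Ccnb1ip1 was listed at 0 in all libraries.

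Upstream regulators were also examined, beside the 56.7% of all tested genes that were higher with naringin. Of 14 G1 cyclins, kinases and inhibitors 9 were higher and 5 lower (median log2 fold 0.04). The smallest p values were those of Wee1, which holds Cdk1 inactive, with a log2 fold of 0.32, and Ccnf, an E2F-destroying cyclin, with 0.20. Of 17 pocket protein, E2F, Myb and FoxM1 genes 11 were higher and 6 lower, with a median of 0.07, and the smallest p values were those of E2f2 and Tfdp1, the E2F partner, with log2 folds of 0.16 and 0.13. Of 10 quiescence genes, which hold lymphocytes at rest, 7 were higher and 3 lower, with a median of 0.05, and the smallest p values were those of Slfn2 and Tob1, with log2 folds of 0.26 and 0.16. Slfn2 had 0.48 without Control 3 and 0.12 without Control 2.

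Markers of the cells that could carry these transcripts did not move as one. The 9 tested germinal centre markers had a median log2 fold of 0.0030 and the 7 tested plasma cell markers 0.03. B cell markers were higher in 7 of 8, with a median of 0.14, and T cell markers lower in 7 of 7 tested, with a median of -0.22 and sums of 1780 to 1898 CPM in the controls and 1428 to 1851 CPM with naringin. The eighth T cell marker, Trbc2, was listed at 0 in all libraries. Erythroid markers were higher in 5 of 5, with sums of 32.1 to 49.6 CPM and 55.2 to 58.8 CPM. Adipocyte markers, low in all libraries with Lep at 0 in Naringin 2, summed to 13.5 to 56.9 CPM and 5.53 to 20.97 CPM. Over all tested genes 56.7% were higher. At an unadjusted limma p under 0.05, where 1.43% of all tested genes lay, there were 1 T cell marker (Cd5) and 3 erythroid markers, 0 markers passed after adjustment, and their part in the members' values was not tested.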

How the data were processed

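Per the submitters' processing notes, reads were handled with Trimmomatic 0.39, STAR 2.7.9a, featureCounts of Subread 1.6.0 and edgeR 3.40.0 on build mm39. Which annotation and strand setting were used is not stated by those notes or the labels, so reads of overlapping or antisense genes may be mixed. Values deposited by the authors are CPM (counts per gene scaled to the library total). All values above 0 (100%) were whole reads within 0.01. Libraries held 13074180 to 14976422 reads, and 1 read was worth 0.0668 to 0.0765 CPM.

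Values were analysed as log2(CPM + 1), which understates changes of low genes. Genes whose mean reached 1 CPM (14873) were fitted with limma 3.58.1 (R 4.3.3; trend, robust, 2-sided) over all 6 libraries, with Benjamini-Hochberg adjustment over all of them and a threshold of 0.05. Recovered reads were also tested with edgeR 4.0.16 and DESeq2 1.42.0. The steps were tested on simulated data. Lengths are those of the principal transcript in GENCODE M21, found for 93.8% of tested genes and all 44 members.

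The members and lists were chosen with earlier results of these data known, so lists are described and not tested. Values in every library are given for the 4 genes of each phase with the smallest p, those with the extreme folds, Mcm2, Pcna, Mki67, Top2a and Ccnb1, and some others chosen after their values were seen. Of each further cell cycle list the 2 genes with the smallest p are named. Alternatives changed the pseudocount, the filter, the scaling or the test, added a block for replicate number, dropped limma's trend, left out each library in turn and, chosen after seeing the data, corrected for length.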

Additional observations from a re-analysis of the deposited data

How the results depend on the processing

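No member passed an adjusted p of 0.05 under any alternative run. Over all tested genes limma called 0, DESeq2 called 3, and the length correction without Control 3 called 1, none of them members, and leaving out single libraries gave 0 to 1. The replicate block changed no call: it gave 0 genes, with 157 at an unadjusted p under 0.05 against 213 without it, and the same medians of 0.03 and 0.11. Same-numbered libraries did not deviate together (correlations of -0.26, -0.02 and -0.27). The labels do not say whether the numbers pair the samples. With 3 libraries a group, these correlations cannot settle it. The S phase median, 0.03, ran from -0.0096 to 0.11 over the 6 fits that leave out a library and was -0.02 under quantile normalization; the G2/M median ran from 0.03 to 0.20. The S phase minus G2/M difference ran from -0.10 to 0.05. Directions of single members were not stable: 8 of 44 changed sign under quantile normalization, 9 under DESeq2, and 10 each without Control 2, Control 3 and Naringin 3. With 3 libraries a group, SEs of 0.12 to 0.26 limit what can be seen.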
